A study of Mus musculus with 17 samples.

Results

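The matrix metalloproteinases (MMPs), the ADAMTS proteases, the ADAMTS-like proteins and the tissue inhibitors of metalloproteinases (TIMPs) were followed in mouse spinal cord. Members were taken by gene symbol (Mmp, Timp, Adamts or Adamtsl followed by a number in the platform's annotation), without regard to their signal, and each gene was read from the probe set with the most signal among those assigned to it alone. This gave 42 of the 18194 genes measured, namely 18 MMPs, 4 TIMPs, 15 ADAMTS and 5 ADAMTS-like genes. Mmp15, Mmp21, Mmp25, Mmp27, Mmp28, Adamts2, Adamts13, Adamts14 and Adamts17 were not analysed here. RNA was from a 4.5 mm length of cord around the injection site, with 1 array per numbered cord sample. The labels do not say that the samples of a group are separate mice, so p-values measure the spread between these samples. In the anti-RGMa group (6 arrays) and the isotype control group (5 arrays), female C57BL/6 mice labelled as 8 weeks old had targeted EAE, in which mice immunised against a myelin peptide receive TNF-α and IFN-γ into the thoracic cord through a laminectomy and pertussis toxin into a vein, which places a lesion at the injected level. They received a humanised antibody against repulsive guidance molecule a (RGMa), an axon guidance protein, or the isotype control antibody palivizumab, both at 10 mg/kg from 9 days post induction (DPI), and cords were taken at 14 DPI. The naïve group (6 arrays) had the same strain, sex and labelled age. Immunisation, surgery, cytokines and the control antibody all differ at once between isotype control and naïve mice, so these cannot be told apart in that comparison.

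MMPs are zinc-dependent enzymes, mostly secreted as inactive proenzymes, that cut collagens, laminins and other matrix proteins, and several of them activate one another. ADAMTS enzymes are secreted relatives that cleave proteoglycans such as versican and aggrecan or process other matrix proteins, whereas ADAMTS-like proteins share their ancillary domains but lack the protease domain. TIMPs bind and block the active enzymes, and in the inflamed nervous system the balance of these families is known for its part in remodelling the basement membranes around vessels.

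Values are log2 of the deposited MAS5.0 signals, in which 1 unit is a doubling. Levels of different probe sets are not compared with each other. Probe sets with low signals carry mostly background, and a member is called dim here where its mean log2 signal was under 7 in all 3 groups, which applied to 10 of the 42 members. Median signals were 136.0 to 157.3 on anti-RGMa arrays, 136.8 to 164.8 on isotype control arrays and 131.5 to 145.1 on naïve arrays. The 10 neuron and 9 oligodendrocyte markers measured were all above that level in at least 1 group, so the markers of the labelled tissue were present. In the isotype control group, replicates 3, 4 and 5 carried more signal of skeletal muscle genes (list means of 9.05, 12.88 and 9.12, against 5.72 and 5.31 in replicates 1 and 2), and replicates 3 and 4 also had the most signal of fibroblast genes (12.33 and 12.95, against 10.37 to 11.03 in the other replicates). The list means of the anti-RGMa arrays were 5.81 to 7.35 for muscle and 9.11 to 10.52 for fibroblast genes, and those of the naïve arrays 4.71 to 8.18 and 8.84 to 9.70. For the members given in full, calls between the antibodies that change without these 3 arrays are given with that value. RNA of whole cord was measured, so fewer cells of a type and less RNA per cell cannot be told apart.

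Targeted EAE raised a large share of the families. Of the 42 members, 21 (50.0%) were higher in isotype control than in naïve cords at an adjusted p under 0.05, against 24.6% of all genes. Lower members numbered 3 (7.14%), against 27.2% of all genes. The median log2 fold change was 0.45 over the members and -0.04 over all genes. In 18 members (42.9%) every isotype control array was above every naïve array, against 18.3% of all genes. In 1 member (2.38%), Mmp17, every isotype control array was below, against 20.4% of all genes. Without naïve replicate 2 the lower members numbered 5. The inhibitor Timp1 rose by 6.16 on the log2 scale, and Mmp13 (5.70), Mmp12 (5.48), Mmp3 (3.94), Mmp19 (3.86) and Mmp8 (3.75) rose as well. The naïve means of these 6 genes lay under the level of 7, so the sizes of their rises depend on how low signals are treated. With an offset of 32 added to every signal, all 6 kept the call, at 5.63 for Timp1, 3.37 for Mmp13, 3.38 for Mmp12, 2.61 for Mmp3, 2.67 for Mmp19 and 2.46 for Mmp8. The heat map of all members shows these as the dark rows of both antibody groups.

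**Figure D1:**
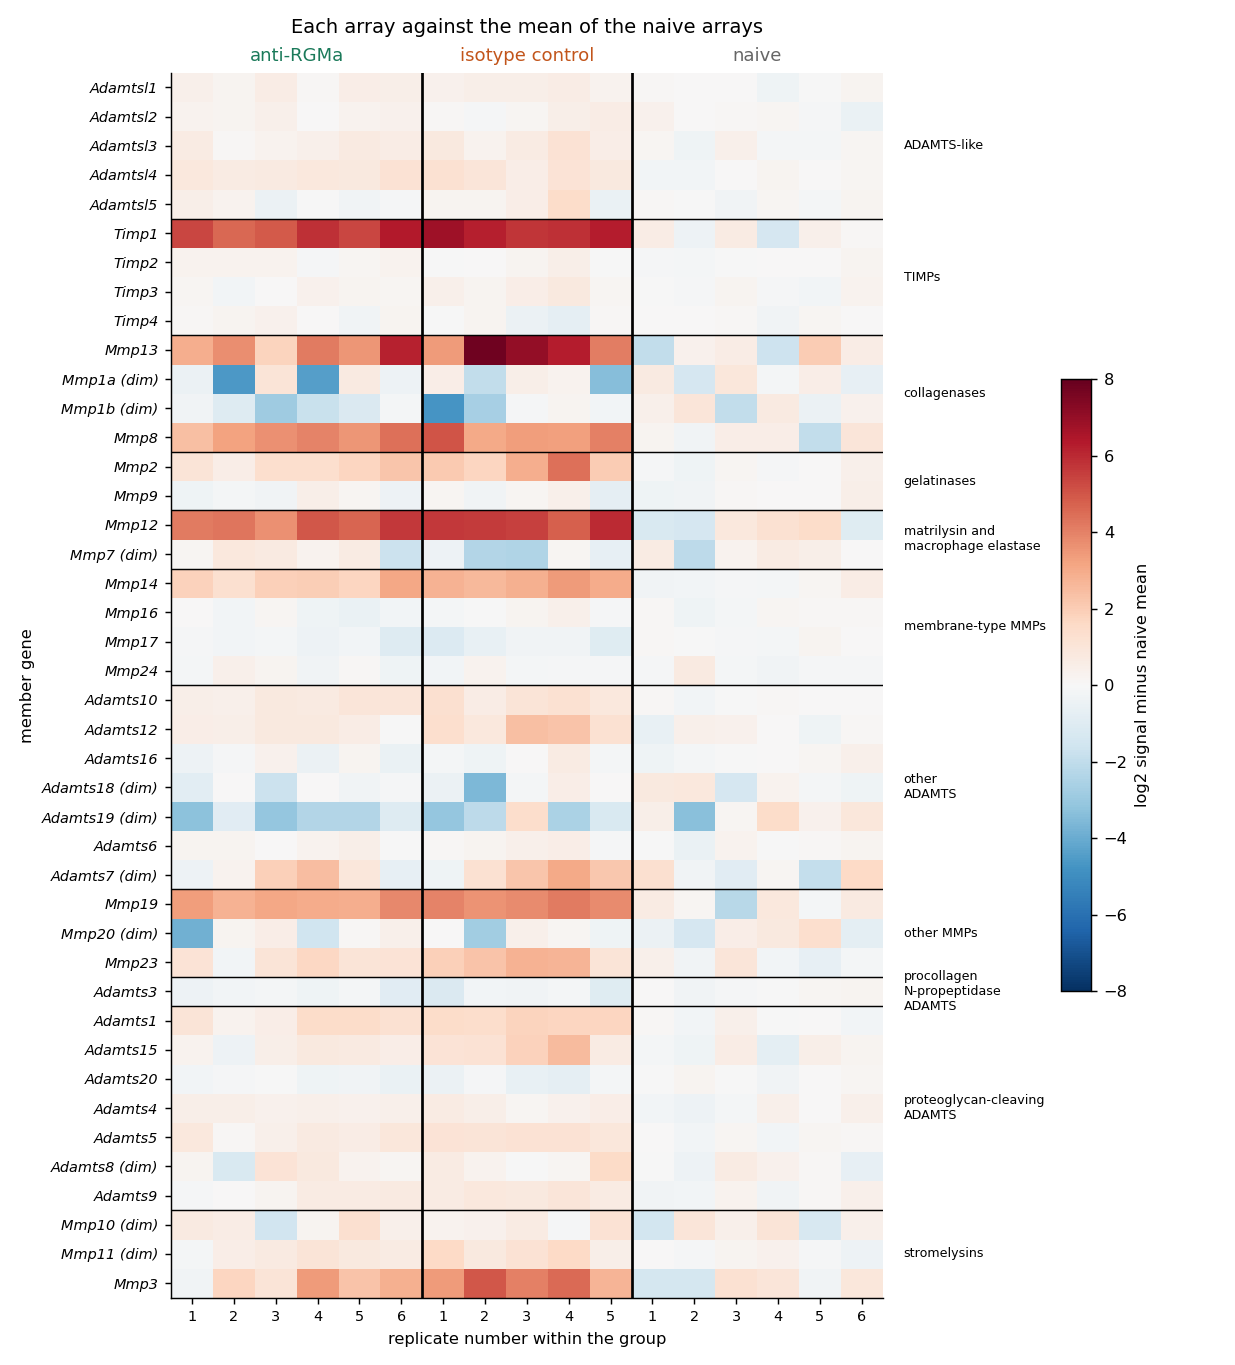
Log2 signal of each of the 42 members (rows, grouped by family) on each array (columns), as the difference from the mean of the naïve arrays, on a colour scale that reaches 8 log2 units to either side of 0. Timp1, Mmp12, Mmp13, Mmp8, Mmp19 and Mmp3 are raised across the anti-RGMa and isotype control arrays, while Mmp9, Mmp16 and Mmp24 stay near 0.

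Several of these genes are neighbours. In the RefSeq gene table, 9 of the members lie in 1 cluster on chromosome 9, in the order Mmp13, Mmp12, Mmp1b, Mmp3, Mmp1a, Mmp10, Mmp8, Mmp20 and Mmp7. The cluster holds 4 of the 6 rises named above, while the other 5 members of it (Mmp1a, Mmp1b, Mmp10, Mmp20 and Mmp7) were dim and did not pass the test against naïve cord in either direction. Promoter sequences from RefSeq (GRCm38.p6) were matched for 27 of the 42 members. The binding motif of AP-1, the Fos and Jun transcription factor, TGACTCA on either strand (TGAGTCA when read on the other), stood within the 250 bases before a start in 7 of these 27 genes (25.9%), against 5.16% of the 27025 genes in the table. All 7 belong to the chromosome 9 cluster (Mmp10, Mmp12, Mmp13, Mmp1a, Mmp1b, Mmp3 and Mmp7). The letters TATAAA began within 50 bases before a start in 8 of the 27 members (29.6%), against 3.15% of genes. The 120 bases before the start are shown for 3 cluster genes that rose in EAE (Mmp13, Mmp3 and Mmp12, the last at the second of its annotated starts) and for 2 dim ones (Mmp10, and Mmp7 at the first of its starts), to show that the motif sits in both. All are on the plus strand, at chr9:7272394-7272513, chr9:7445702-7445821, chr9:7347254-7347373, chr9:7502222-7502341 and chr9:7691970-7692089 in that order. Capitals mark the AP-1 motif.
Mmp13: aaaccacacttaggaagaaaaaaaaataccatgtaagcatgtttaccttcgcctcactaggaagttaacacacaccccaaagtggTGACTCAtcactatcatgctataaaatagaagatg
Mmp3: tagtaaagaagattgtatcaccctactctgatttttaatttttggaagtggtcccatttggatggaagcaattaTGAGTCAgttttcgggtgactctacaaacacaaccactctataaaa
Mmp12: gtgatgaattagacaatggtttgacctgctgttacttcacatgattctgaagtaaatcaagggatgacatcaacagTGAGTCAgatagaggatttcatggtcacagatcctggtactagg
Mmp10: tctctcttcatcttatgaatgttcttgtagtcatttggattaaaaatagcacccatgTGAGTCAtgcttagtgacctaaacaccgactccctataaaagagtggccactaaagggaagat
Mmp7: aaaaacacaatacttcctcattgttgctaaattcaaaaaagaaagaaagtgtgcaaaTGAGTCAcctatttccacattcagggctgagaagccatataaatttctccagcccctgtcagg
The motif begins 35 bases before the start in Mmp13, 46 in Mmp3, 44 in Mmp12 and 63 in both Mmp10 and Mmp7. Genes that rose and genes that stayed dim therefore both hold these letters, and Mmp8, which rose, does not hold them in its window.

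Among the collagenases, which cut fibrillar collagen, Mmp13 (collagenase-3) and Mmp8 (neutrophil collagenase) were raised in EAE. Mmp13 read 6.26, 10.61, 9.90, 9.11 and 6.93 in isotype control replicates 1 to 5, and 0.92 to 4.92 with a median of 3.31 in naïve cords. The 5 isotype control values fell into a high set of replicates 2, 3 and 4 and a lower set of replicates 1 and 5, all above the naïve values, and the difference was 5.70 ± 0.93 (SE, adjusted p = 9.66e-05). Mmp8 read 9.29, 7.35, 7.66, 7.55 and 8.34 in isotype control replicates 1 to 5, and 2.29 to 5.25 (median 4.66) in naïve cords. Replicates 1 and 5, the low ones for Mmp13, were the highest for Mmp8, and no isotype control array overlapped the naïve ones (3.75 ± 0.50, adjusted p = 1.71e-05). The rodent collagenases Mmp1a and Mmp1b were dim, with differences of -0.82 and -1.50 that did not pass the test.

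The stromelysin Mmp3, which cuts laminin and proteoglycans and activates other MMPs, and Mmp12, the elastase of macrophages, followed. Mmp3 read 7.70, 9.26, 8.30, 8.85 and 7.01 in isotype control replicates 1 to 5 and 2.89 to 5.48 (median 4.60) in naïve cords, without overlap (3.94 ± 0.68, adjusted p = 0.000152). Mmp12 read 8.92, 8.83, 8.71, 8.00 and 9.19 in isotype control replicates 1 to 5 and 1.91 to 4.70 (median 3.18) in naïve cords. Its isotype control values lay close together, in contrast to those of Mmp13, and the difference was 5.48 ± 0.53 (adjusted p = 6.23e-07). Of the other stromelysins, Mmp11 rose by 1.10 (adjusted p = 0.000794) although dim, and Mmp10 differed by 0.47 with no call. Mmp19, which cuts basement membrane proteins, averaged 8.41 ± 0.22 in isotype control cords and 4.55 ± 1.15 in naïve cords (SD, n = 5 and 6), a rise of 3.86 ± 0.43 (SE, adjusted p = 2.55e-06). A second Mmp19 probe set gave a smaller rise of 1.83.

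The gelatinases, which degrade type IV collagen and denatured collagens, differed from each other. Mmp2 (gelatinase A) read 9.92, 9.55, 10.72, 12.23 and 9.86 in isotype control replicates 1 to 5 and 7.45 to 8.19 (median 7.77) in naïve cords. Replicate 4 stood highest, every isotype control array lay above the naïve ones, and the rise was 2.65 ± 0.40 (adjusted p = 5.22e-05). Mmp9 (gelatinase B) read 8.33, 7.85, 8.28, 8.55 and 7.45 in isotype control replicates 1 to 5 and 7.82 to 8.60 (median 8.16) in naïve cords. These ranges overlapped throughout, with a difference of -0.05 ± 0.21 and a 95% interval of -0.49 to 0.39. A second Mmp9 probe set with less signal gave 0.59, and the mean of both gave 0.27, so the sign for Mmp9 depends on the probe set.

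Among the membrane-type MMPs, which act at the cell surface, Mmp14 (MT1-MMP, the activator of pro-MMP2) averaged 11.77 ± 0.30 in isotype control cords and 8.84 ± 0.33 in naïve cords, a rise of 2.93 ± 0.25 (adjusted p = 2.18e-07) with no overlap of arrays. Its 3 probe sets gave 2.72, 3.67 and 2.93. Mmp17, a GPI-anchored family member, fell by 0.64 (adjusted p = 0.00612), whereas Mmp16 (0.06) and Mmp24 (-0.05) had no call. Mmp23, a membrane protease that lacks the haemopexin domain, read 8.17, 8.53, 9.02, 8.99 and 7.28 in isotype control replicates 1 to 5 and 5.61 to 7.23 (median 6.06) in naïve cords. Replicate 5 was the only isotype control array close to the naïve range, and the rise was 2.14 ± 0.37 (adjusted p = 0.000163).

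Of the 7 proteoglycan-cleaving ADAMTS genes, 5 rose and 1 fell in isotype control against naïve cords. Adamts1, an inducible versican- and aggrecan-cleaving enzyme, rose by 1.62 ± 0.19 (adjusted p = 6.30e-06), and Adamts15, of the same activity, by 1.46 ± 0.33 (adjusted p = 0.00135). The aggrecanase Adamts5 rose by 1.07, the versicanase Adamts9 by 0.80 and the aggrecanase Adamts4 by 0.43, while Adamts20 fell by 0.39. Of the other ADAMTS, Adamts12, which cleaves cartilage oligomeric matrix protein, rose by 1.61 ± 0.26 (adjusted p = 0.000107) and Adamts10, which binds fibrillin, by 0.99, whereas the procollagen N-propeptidase Adamts3 fell by 0.56. Adamts16, Adamts6 and the dim Adamts7, Adamts8, Adamts18 and Adamts19 had no call. Among the 5 ADAMTS-like genes, Adamtsl4, a fibrillin-binding protein, rose by 0.90, Adamtsl3 by 0.68 and Adamtsl1 by 0.44, and Adamtsl2 (0.24) and Adamtsl5 (0.38) had no call.

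The TIMPs were unequal in EAE. Timp1, the TIMP that inflammation induces in many tissues, read 13.00, 12.47, 11.94, 12.12 and 12.51 in isotype control replicates 1 to 5 and 4.90 to 6.92 (median 6.49) in naïve cords. Its lowest isotype control array was far above its highest naïve one, and the rise was 6.16 ± 0.37 (adjusted p = 4.04e-09). Timp3, the matrix-bound TIMP that also inhibits ADAM17 and aggrecanases, rose by 0.39 ± 0.13 (adjusted p = 0.0177), with overlapping arrays, and its call was lost without isotype control replicates 3, 4 and 5 (0.29) and without isotype control replicate 4 alone (0.31). Timp2, which with Mmp14 activates pro-MMP2, had a difference of 0.14 (95% interval -0.08 to 0.36) and Timp4 of -0.18 (-0.52 to 0.15), neither with a call. The 6 Timp2 probe sets fell on both sides of 0, with -1.11 as the lowest, and the 4 Timp3 probe sets ran from -0.77 to 0.39, so that the averages over probe sets (-0.24 for Timp2 and -0.04 for Timp3) were below 0. A second Timp4 probe set gave -0.79, and the mean of both gave -0.49 with a call, so the Timp4 call depends on the probe set.

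The comparison of the antibodies asked which of these members differed in treated EAE. At the study's own threshold, which asks for p under 0.05 without adjustment and for a fold above 1.5, 8 of the 42 members (19.0%) were lower in anti-RGMa than in isotype control cords, against 2.72% of all genes, and 1 member was higher (2.38%), against 1.22% of all genes. The 8 were Mmp3 (-2.10), Mmp13 (-1.99), Mmp2 (-1.28), Mmp23 (-1.20), Adamts12 (-1.09), Adamts15 (-1.06), Mmp14 (-0.96) and Adamts1 (-0.63). The member that was higher was the dim Mmp7 (1.30). Without isotype control replicates 3, 4 and 5, 3 of the 8 were still called (Mmp3, Mmp23 and Adamts12). The share of all genes called in that fit is not given here. The median over the members was -0.26, against 0.01 over all genes. Of the 42 members 32 were below 0, against 48.1% of all genes. At an adjusted p under 0.05 with limma no member passed in either direction (lowest adjusted p = 0.188), and of all genes 1 was higher (0.0055%) and 0 lower (0%). This count changed with anti-RGMa replicate 6. Without that array 4 members, Mmp14, Adamts12, Mmp2 and Adamts5, were lower at an adjusted p under 0.05, against 2.80% of all genes, and 0 were higher, against 5.46% of all genes. With the replicate number as a block 1 member, Mmp14, was lower at that level (adjusted p = 0.0423). Of all genes, 5 were lower and 1 higher in that fit. At an unadjusted p under 0.05 without a fold limit, 12 members were lower, against 6.77% of all genes, and 1 higher, against 9.01% of all genes. The 4 further ones were Adamts5 (-0.48), Adamts9 (-0.43), the dim Mmp11 (-0.52) and Timp3 (-0.28). Arrays of the groups did not overlap in 2 members, Adamts12 and Adamts5, both with every anti-RGMa array lower (0.566% of all genes), and in 0 members with every anti-RGMa array higher (0.242% of all genes).

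**Figure D2:**
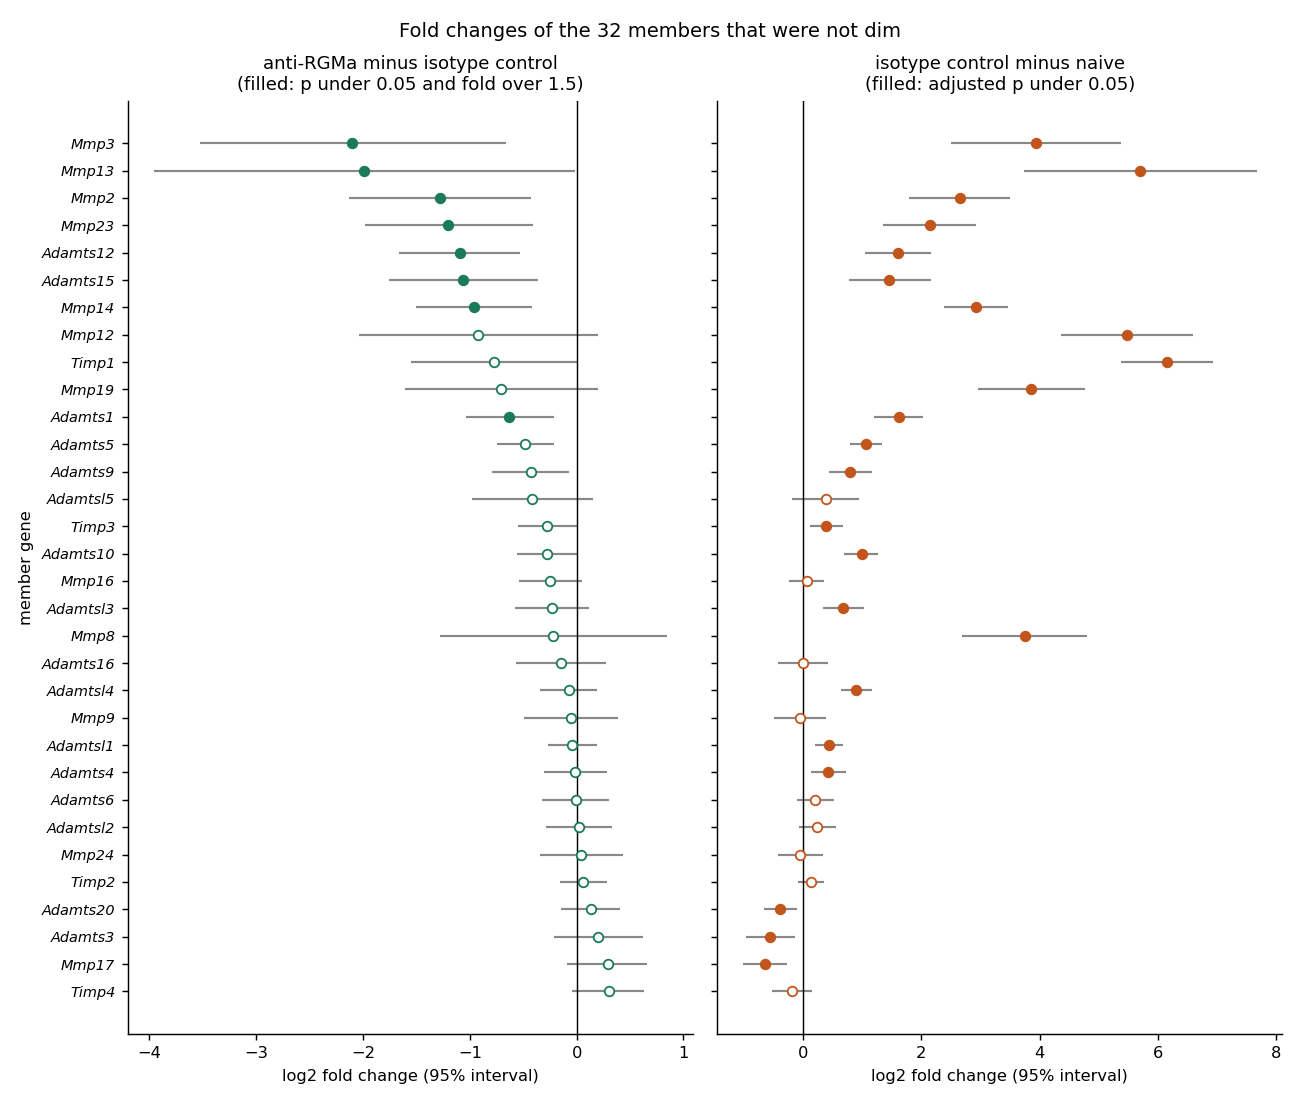
Log2 fold changes (points) with 95% intervals (lines) of the 32 members that were not dim, for anti-RGMa minus isotype control on the left and isotype control minus naïve on the right, sorted by the left panel. Filled points passed the threshold named above each panel, and the 8 genes with filled points on the left, all below 0, have filled points above 0 on the right.

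Mmp3 had the largest fall. It read 4.01 to 7.70 (median 6.29) in anti-RGMa cords and 7.70, 9.26, 8.30, 8.85 and 7.01 in isotype control replicates 1 to 5, 4.28-fold lower (-2.10 ± 0.68, adjusted p = 0.223). The groups met only where anti-RGMa replicates 4 and 6 lay beside isotype control replicates 1 and 5. Without isotype control replicates 3, 4 and 5 the difference was -2.36 and the call was kept. Mmp13 read 4.64 to 9.00 (median 6.49) in anti-RGMa cords and 6.26 to 10.61 in isotype control cords, a difference of -1.99 ± 0.93 (95% interval -3.96 to -0.02, adjusted p = 0.315). Anti-RGMa replicate 6 lay just below the high isotype control arrays, and isotype control replicates 1 and 5 lay among the other anti-RGMa arrays. Without isotype control replicates 3, 4 and 5 the Mmp13 difference was -1.86 with no call. The Mmp13 call sat at the threshold and was lost when any of anti-RGMa replicates 1 to 5 (-2.08 to -1.61), isotype control replicates 2, 3 or 4 (-1.85 to -1.48) or naïve replicates 2, 3 or 6 (-1.99 each) was left out.

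Mmp2 and its activator Mmp14 were both lower. Mmp2 read 8.36 to 10.05 (median 9.13) in anti-RGMa cords and 9.55 to 12.23 in isotype control cords (-1.28 ± 0.40, adjusted p = 0.223). The overlap was formed by anti-RGMa replicate 6 against isotype control replicates 1, 2 and 5. A second Mmp2 probe set gave -1.58. Mmp14 read 10.13 to 11.91 (median 10.71) in anti-RGMa cords and 11.63, 11.46, 11.69, 12.26 and 11.81 in isotype control replicates 1 to 5 (-0.96 ± 0.25, adjusted p = 0.209), with only anti-RGMa replicate 6 inside the isotype control range. Its 3 probe sets gave -0.90, -1.07 and -0.96. Without isotype control replicates 3, 4 and 5 neither passed, at -0.56 for Mmp2 and -0.74 for Mmp14. Mmp23 read 6.02 to 7.91 (median 7.31) in anti-RGMa cords and 7.28 to 9.02 in isotype control cords (-1.20 ± 0.37, adjusted p = 0.223), and was at -1.15, still called, without those 3 arrays. Isotype control replicate 5 was the only one of its group within the anti-RGMa range.

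The ADAMTS genes that fell were proteoglycan-cleaving enzymes and Adamts12. Adamts12 read 6.22, 6.16, 6.44, 6.43, 6.25 and 5.66 in anti-RGMa replicates 1 to 6 and 7.02, 6.54, 8.05, 7.93 and 6.89 in isotype control replicates 1 to 5 (-1.09 ± 0.26, adjusted p = 0.188). The groups did not overlap, and isotype control replicates 3 and 4 stood above the rest. The difference was -0.59, at the edge of the fold limit, without isotype control replicates 3, 4 and 5, and a second Adamts12 probe set of low signal gave -0.19. Adamts15 read 5.87 to 7.01 (median 6.76) in anti-RGMa cords and 7.33, 7.41, 8.10, 8.79 and 6.92 in isotype control replicates 1 to 5 (-1.06 ± 0.33, adjusted p = 0.223), and it was at -0.72 with no call without replicates 3, 4 and 5. Only isotype control replicate 5 lay within the anti-RGMa range. Adamts1 read 9.08 to 10.25 (median 9.89) in anti-RGMa cords and 10.20 to 10.56 in isotype control cords (-0.63 ± 0.19, adjusted p = 0.223). Anti-RGMa replicates 4 and 5 just reached the lowest isotype control array. Its fold of 1.55 was close to the limit, and the call was lost without anti-RGMa replicate 2 (-0.49), without anti-RGMa replicate 3 (-0.54) and without isotype control replicates 3, 4 and 5 (-0.46). Adamts5, without overlap between groups, averaged 9.09 ± 0.29 in anti-RGMa cords and 9.56 ± 0.10 in isotype control cords (SD, n = 6 and 5), and its 4 probe sets ran from -0.68 to -0.38.

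**Figure D3:**
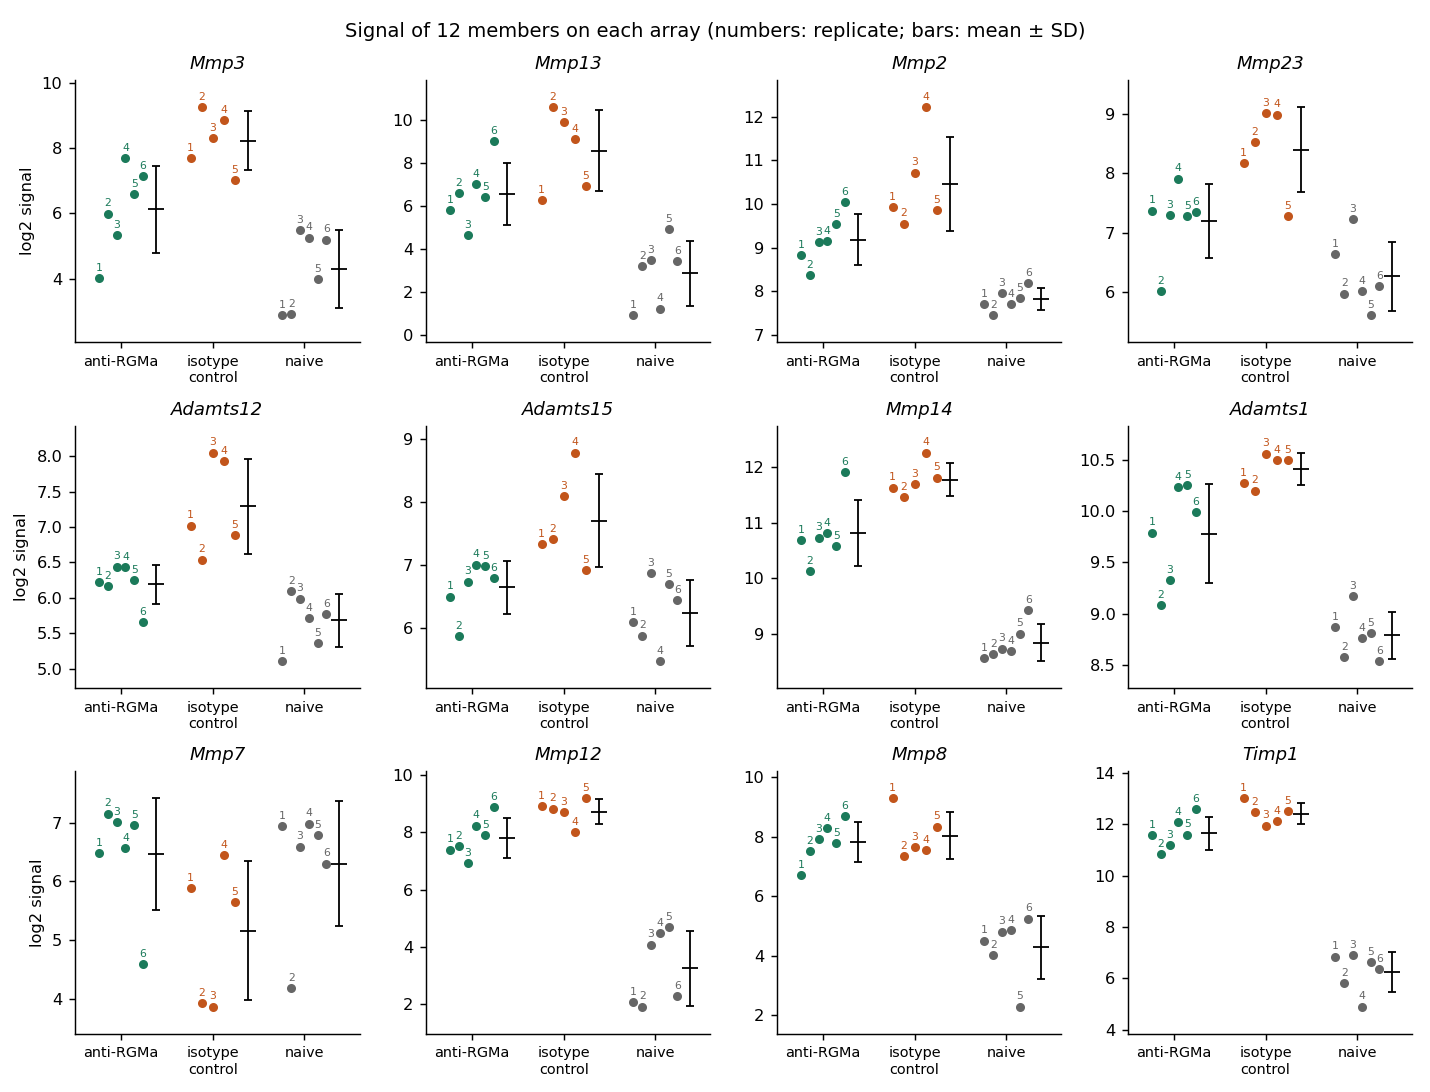
Log2 signal of 12 members on each array, with replicate numbers beside the points and the mean ± SD of each group as bars, for anti-RGMa (6 arrays), isotype control (5 arrays) and naïve cords (6 arrays). The 8 members lower in anti-RGMa cords come first, and their highest isotype control value is always in replicate 2, 3 or 4.

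The highest isotype control value was in replicate 3 for 3 of the 8 members, in replicate 4 for 3 and in replicate 2 for 2. The lowest was in replicate 2 for 4 of them, in replicate 5 for 3 and in replicate 1 for 1. In the anti-RGMa group the highest value was in replicate 6 for 3 members (Mmp13, Mmp14 and Mmp2) and in replicate 4 for 3 members (Adamts15, Mmp23 and Mmp3).

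Other members with large rises in EAE did not pass the threshold between the antibodies, although some of their differences were as large as those of members that did. Mmp12 was 7.81 ± 0.69 in anti-RGMa cords and 8.73 ± 0.45 in isotype control cords, a difference of -0.92 with a 95% interval of -2.04 to 0.20 (adjusted p = 0.399). Mmp19 differed by -0.71 (-1.61 to 0.20) and Mmp8 by -0.22 (-1.28 to 0.85), neither of them called. The second Mmp19 probe set gave -0.39. In 4 of 28 alternative settings Mmp19 passed. These were an offset of 32, only the groups compared, the replicate block, and naïve replicate 3 left out (-0.71). Mmp12 passed in 2 of 28, with the offset of 32 and with only the groups compared. Timp1 read 10.84 to 12.58 (median 11.57) in anti-RGMa cords and 11.94 to 13.00 in isotype control cords, a difference of -0.77 with a 95% interval of -1.55 to 0.01 (adjusted p = 0.320). Timp1 lay at the threshold, with anti-RGMa replicates 4 and 6 inside the isotype control range, and passed it in 12 of 28 alternative settings, among them those without anti-RGMa replicate 4 (-0.86) or 6 (-0.96), without isotype control replicate 3 (-0.89) and without naïve replicates 3 or 4 (-0.77 each).

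Timp2, Timp3, Timp4 and Mmp9 were not called between the antibodies. Timp2 read 12.60 to 13.00 (median 12.97) in anti-RGMa cords and 12.70, 12.74, 12.90, 13.18 and 12.69 in isotype control replicates 1 to 5, a difference of 0.06 (-0.16 to 0.28). Timp3 read 10.73 to 11.29 (median 11.12) in anti-RGMa cords and 11.33, 11.15, 11.47, 11.71 and 11.10 in isotype control replicates 1 to 5 (-0.28, 95% interval -0.55 to -0.00), a fold of 1.21. Timp4 read 11.28 to 11.89 (median 11.70) in anti-RGMa cords and 11.50, 11.77, 11.09, 10.80 and 11.62 in isotype control replicates 1 to 5, a difference of 0.30 (-0.04 to 0.63). A second Timp4 probe set gave 0.48. The groups overlapped in all 3 TIMPs, and isotype control replicate 4 was the highest of its group for Timp2 and Timp3 and the lowest for Timp4. Mmp9 read 7.73 to 8.63 (median 7.92) in anti-RGMa cords, within the isotype control range apart from its highest array, and differed by -0.05 (-0.49 to 0.39).

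Mmp7 (matrilysin) was the only member called higher, and its values are those of a dim probe set. It read 6.48, 7.15, 7.01, 6.56, 6.95 and 4.59 in anti-RGMa replicates 1 to 6 and 5.88, 3.93, 3.87, 6.45 and 5.65 in isotype control replicates 1 to 5 (1.30 ± 0.61, 95% interval 0.00 to 2.61, adjusted p = 0.317). Anti-RGMa replicate 6 was low and the others were above all isotype control arrays. Without isotype control replicates 3, 4 and 5 the difference was 1.56 with no call. The call was lost when any of anti-RGMa replicates 1 to 5 (1.16 to 1.30), isotype control replicates 2, 3 or 5 (0.98 to 1.43) or naïve replicates 1, 3, 4, 5 or 6 (1.30 each) was left out. In naïve cords Mmp7 read 4.19 to 6.98 (median 6.69), and EAE with the isotype control antibody differed from that by -1.14 with no call, or by -1.56 with a call (adjusted p = 0.0253) without naïve replicate 2.

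Against naïve cords, 17 members (40.5%) were higher in anti-RGMa cords at an adjusted p under 0.05, against 20.3% of all genes, and 1 (2.38%), the dim Adamts19 (-2.17), was lower, against 21.6% of all genes. The Adamts19 call was lost without any one of anti-RGMa replicates 1, 3, 4 or 5, isotype control replicates 2, 4 or 5, or naïve replicates 1, 3, 4, 5 or 6. In 8 members (19.0%) every anti-RGMa array was above every naïve array, against 13.9% of all genes, and in 0 members below, against 13.8% of all genes. Those above were Adamts10, Adamtsl4, Mmp12, Mmp14, Mmp19, Mmp2, Mmp8 and Timp1. This comparison and the one above share the naïve arrays, so the values are set side by side. Of the 8 members lower in anti-RGMa than in isotype control cords, all 8 were higher in isotype control than in naïve cords and 6 were higher in anti-RGMa than in naïve cords. Over naïve cords Mmp14 was at 1.97 in anti-RGMa and 2.93 in isotype control cords, Mmp2 at 1.37 and 2.65, Mmp3 at 1.84 and 3.94, Mmp13 at 3.71 and 5.70, Mmp23 at 0.94 and 2.14, and Adamts1 at 0.99 and 1.62 in the same order. Adamts12 was at 0.52 (adjusted p = 0.116) in anti-RGMa cords against 1.61 in isotype control cords, and Adamts15 at 0.41 (adjusted p = 0.330) against 1.46. With an offset of 32 Mmp13 was at 1.70 in anti-RGMa and 3.37 in isotype control cords, and both Mmp3 values were smaller too. Timp1 was at 5.39 in anti-RGMa cords, against 6.16 in isotype control cords. The calls of Mmp23 and Mmp3 against naïve cords were close to the threshold (adjusted p = 0.0426 and 0.0310) and were lost when single arrays were left out. For Mmp23 these were anti-RGMa replicates 1, 3, 4, 5 and 6, isotype control replicate 2 and naïve replicates 2, 4, 5 and 6 (0.80 to 0.94), and for Mmp3 anti-RGMa replicates 4, 5 and 6 and naïve replicates 1, 2 and 5 (1.52 to 1.78).

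Other genes of the same pathways were taken from lists of partners and substrates. Of 31 partners measured (ADAM proteases, plasminogen activators, cathepsins, proprotein convertases and receptors), 0 were higher and 2 lower in anti-RGMa than in isotype control cords, namely the membrane protease Adam12 (-1.07) and the collagen-degrading cathepsin Ctsk (-0.78). Without isotype control replicates 3, 4 and 5 neither was called, and Adam8 and Papln, an ADAMTS-like extracellular protein, were called lower instead. Papln was dim by the members' measure, with means of 1.54 in anti-RGMa, 2.39 in isotype control and 2.11 in naïve cords. Spock1, a testican that modulates MMP activity (0.45), and Bsg, the inducer of MMPs also called EMMPRIN (0.29), were also among the 4 smallest p-values but did not pass the fold limit. In isotype control against naïve cords, 20 partners rose and 6 fell, the smallest p-values being those of Lcn2, a binding partner of MMP9 (7.91), the cathepsin Ctss (2.51), the broad protease inhibitor A2m (2.25) and Adam8, a protease of leukocytes (2.62). Between the antibodies Ctss (0.03) and A2m (0.04) had no call, and Lcn2 averaged 14.15 in both groups.

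Of 14 substrates of these enzymes measured, 0 were higher and 7 were lower in anti-RGMa than in isotype control cords, with a list median of -0.87. Without isotype control replicates 3, 4 and 5 there were 3, all among the 7, and the median was -0.50. The smallest p-values were those of the laminin chains Lamb1 (-1.31) and Lama1 (-1.03), the proteoglycan biglycan, Bgn (-1.09), and fibronectin, Fn1 (-0.91). Lama1 was dim by the members' measure and had no call in isotype control against naïve cords (0.5). In isotype control against naïve cords 8 substrates rose and 2 fell, with rises of Fn1 (2.58), Bgn (2.41), Nid1 (1.80), a linker of basement membranes, and the proteoglycan versican, Vcan (1.07). The 2 that fell were the brain proteoglycan Bcan (-0.66) and the myelin protein gene Mbp (-0.23). Dcn and Mbp also stand in the marker lists of fibroblasts and oligodendrocytes.

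Markers of several other cell types also differed. Of 10 fibroblast markers, 8 were lower in anti-RGMa than in isotype control cords, with a median of -1.36, and their summed signal ranged from 8316 to 25542 in anti-RGMa, from 21828 to 113985 in isotype control and from 7324 to 14151 in naïve cords. Without isotype control replicates 3, 4 and 5, 3 of the 8 were called, with a median of -0.75. Of 10 mural and smooth muscle markers 5 were lower (median -0.89), with summed signals of 6009 to 8019 in anti-RGMa, 7441 to 17503 in isotype control and 5630 to 7641 in naïve cords. Of 17 macrophage markers 3 were lower (median -0.30), with summed signals of 61014 to 112688 in anti-RGMa, 59741 to 117552 in isotype control and 6653 to 8248 in naïve cords. Of 16 skeletal muscle markers 3 were lower (median -1.74), with summed signals of 2996 to 5571 in anti-RGMa, 2407 to 149164 in isotype control and 4686 to 9881 in naïve cords. Of 8 neutrophil markers none was called between the antibodies (median 0.06), while 7 rose in isotype control against naïve cords, as did Mmp8. Of 10 endothelial markers 3 were lower (median -0.31). Of 10 neuron markers 2 were higher (median 0.47), and anti-RGMa replicate 6 had the lowest neuron list mean of its group (11.36, against 12.11 to 12.39). Of 7 dorsal root ganglion markers, 5 of them dim, 2 were higher (median 1.16), with list means of 9.26 and 7.90 in anti-RGMa replicates 1 and 6, against 5.80 to 6.29 in the rest of that group. The skeletal muscle median was 0.99, with 0 of 16 lower and 1 higher, without isotype control replicates 3, 4 and 5. No marker was listed at a signal of 0. The part of these cell types in the members' differences was not tested.

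Members were set against markers over the 11 EAE arrays. In all, 34 relations were computed, of 17 members with the mean of the fibroblast or the macrophage list, with permutation p-values adjusted over the 34. Adamts15 followed the fibroblast list most closely (Pearson r = 0.99, adjusted permutation p = 0.00034; Spearman rho = 0.94, adjusted p = 0.00181), and r was 0.97 without isotype control replicates 3 and 4, the arrays farthest from the median of the list. Timp3 (r = 0.95, rho = 0.85), Mmp2 (r = 0.93, rho = 0.90) and Mmp23 (r = 0.92, rho = 0.85) did so too, with adjusted permutation p-values of 0.000907, 0.00177 and 0.00102 for r and 0.00861, 0.00425 and 0.00981 for rho, and with r of 0.89, 0.79 and 0.94 without those 2 arrays. Within the 6 anti-RGMa arrays alone r was 0.96 for Adamts15, 0.91 for Timp3, 0.79 for Mmp2 and 0.94 for Mmp23, with exact permutation p-values of 0.0222, 0.0556, 0.0250 and 0.0972. Anti-RGMa replicate 2 had a fibroblast list mean of 9.11, against 10.20 to 10.52 in the others, and the lowest value of each of these members. These r values therefore rest in part on replicate 2, and r without it was not computed. Values within the isotype control group alone were not computed. Adamts12 had r = 0.85 (adjusted permutation p = 0.0177), which was 0.40 without those 2 arrays and -0.04 within the anti-RGMa arrays, so that the relation rests on isotype control replicates 3 and 4.

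Timp1 and Mmp12 had their highest values with the macrophage list. For Timp1 r was 0.91 and rho 0.99 (adjusted permutation p = 0.00034 and 0.00068), with r = 0.87 without anti-RGMa replicate 6 and isotype control replicate 1, the arrays farthest from the median of that list, and r = 0.92 within the anti-RGMa arrays (exact permutation p = 0.00278). For Mmp12 r was 0.81 and rho 0.92 (adjusted permutation p = 0.00351 and 0.00181), with r = 0.82 without those 2 arrays. With the fibroblast list r was 0.42 for Timp1 and 0.31 for Mmp12, or 0.83 and 0.59 without isotype control replicates 3 and 4, and within the anti-RGMa arrays 0.77 for Timp1 (exact permutation p = 0.0139). Mmp2 had r = 0.84 with the macrophage list within the anti-RGMa arrays (exact permutation p = 0.0306), and Mmp14 had 0.98 (exact permutation p = 0.0167), so members followed both lists, and differences between correlations were not tested. Anti-RGMa replicate 6 stood apart on the macrophage list (11.70, against 10.42 to 10.93) and was the highest of its group for Timp1, Mmp2 and Mmp14. These values within the anti-RGMa arrays therefore rest in part on replicate 6. Mmp8 had r = 0.79 and rho = 0.65 (adjusted permutation p = 0.0177 and 0.0758), which was 0.47 without them. Mmp14 had r = 0.76 with the fibroblast list (adjusted permutation p = 0.0122) and 0.66 with the macrophage list (adjusted permutation p = 0.0619). Mmp3 had r = 0.66 with the fibroblast list (adjusted permutation p = 0.0492, rho = 0.87) and Mmp13 r = 0.59 (adjusted permutation p = 0.147), and r fell to 0.56 and 0.35 for these without isotype control replicates 3 and 4. The list means differ between the antibody groups, so these relations include the difference between the groups.

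**Figure D4:**
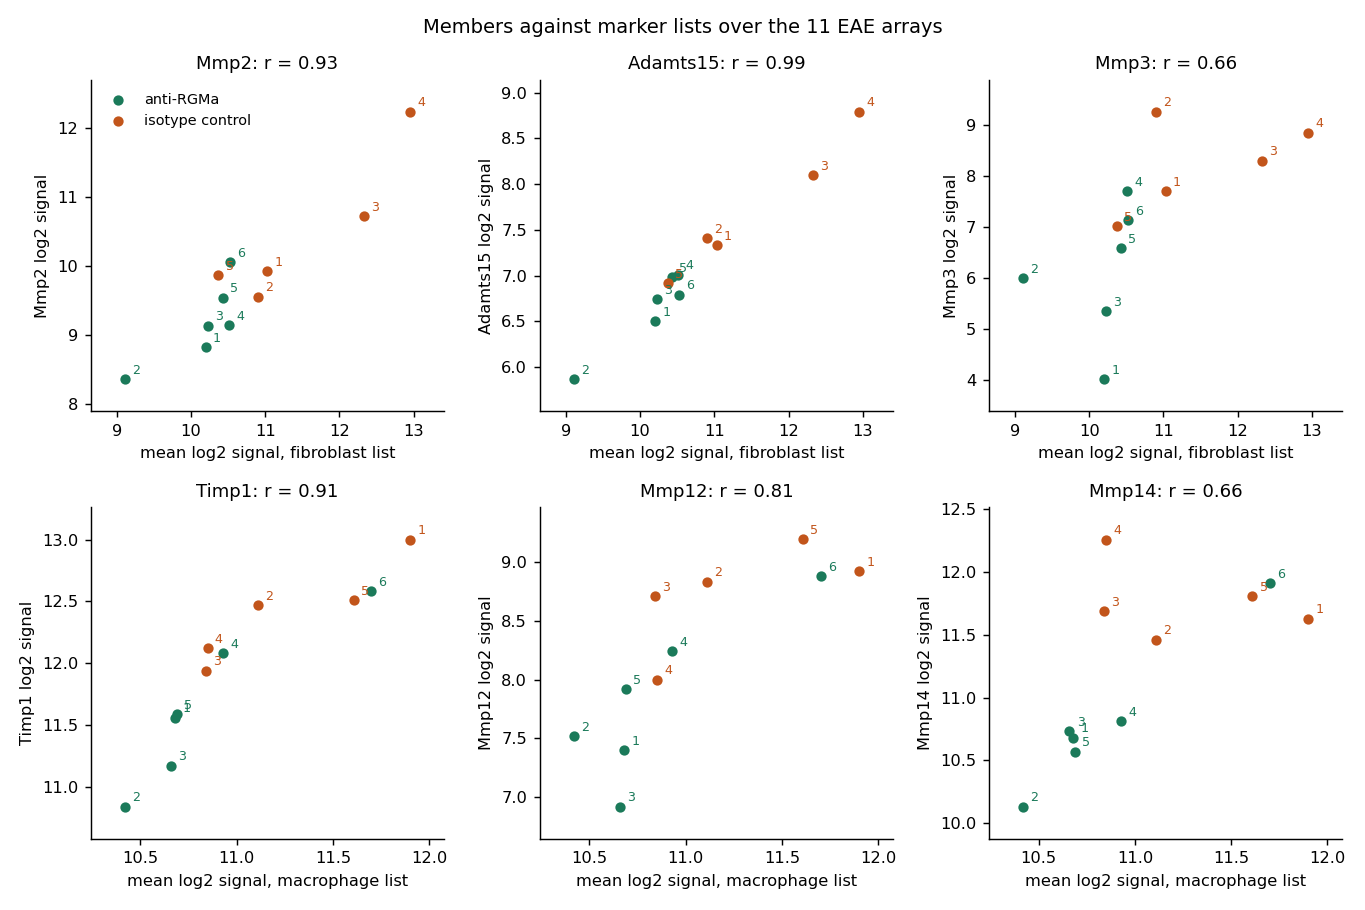
Log2 signal of a member against the mean log2 signal of the fibroblast list (top, Mmp2, Adamts15 and Mmp3) or the macrophage list (bottom, Timp1, Mmp12 and Mmp14) on the 6 anti-RGMa and 5 isotype control arrays, with replicate numbers and Pearson's r. Isotype control replicates 3 and 4 lie at the high end of the fibroblast list, and anti-RGMa replicate 6 and isotype control replicates 1 and 5 at the high end of the macrophage list.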

How the data were processed

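The members and gene lists were chosen with earlier results of these data known. The authors measured RNA of 17 spinal cords on Affymetrix mouse genome arrays, and the deposited values are MAS 5.0 signal intensities under global scaling. Their 2% trimmed mean averaged 500.0 over the 17 arrays. The authors' software version is not given in the sources used here. Of 45101 probe sets, 34958 were assigned to 1 gene, 932 to several and 9211 to none, and only the first were used. For each of 18194 genes the probe set with the highest mean log2 signal was kept (78 probe sets for the 42 members, of which 21 had several). Log2 signals, without an offset or filter, were fitted in 1 model over 3 groups with limma 3.58.1 (lmFit and eBayes, two-sided) in R 4.3.3, and adjusted p-values are Benjamini-Hochberg values over all genes. The adjusted threshold was used against naïve cords and the study's threshold between the antibodies. Correlations used permutation tests in Python 3.11.15. Full values were given for members past the study's threshold, for the 10 largest EAE changes among members called at an adjusted p under 0.05 whose higher group had a mean log2 signal of 8 or more, and for TIMPs and gelatinases. From the partner and substrate lists the 4 smallest p-values of each comparison were named. Alternatives were quantile normalization, an offset of 32, a filter on dim genes, the mean of probe sets, array weights, another variance model, 2 groups only, muscle and cartilage covariates, a replicate block and arrays left out. The number of arrays, with signals of 0.01183 to 44408, limits the precision.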

Additional observations from a re-analysis of the deposited data

Results flagged for a closer look

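Single arrays stood far from the rest of their group in 7 of 51 groups of values tested with Dixon's criterion, which chance gives in about 1 of 20 groups. In the anti-RGMa group, Adamts12 was 5.66 in replicate 6 (the others 6.16 to 6.44), Mmp23 was 6.02 in replicate 2 (7.28 to 7.91), the dim Mmp7 was 4.59 in replicate 6 (6.48 to 7.15) and Timp2 was 12.60 in replicate 4 (12.86 to 13.00). In the naïve group, Mmp19 was 2.34 in replicate 3 (4.41 to 5.42), Mmp7 was 4.19 in replicate 2 (6.30 to 6.98) and Timp4 was 11.25 in replicate 4 (11.56 to 11.67). No isotype control array was set apart in this way, although replicates 3 and 4 were high for several members.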

How the results depend on the processing

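Of 1425 alternative values of the 17 members given in full, 1305 kept direction and side of the threshold, 67 lost the call, 25 gained one and 28 changed sign. Between the antibodies, the lower members numbered 3 without isotype control replicates 3, 4 and 5 and 0 at an adjusted p under 0.05 with limma (12 at an unadjusted p, and 4 at an adjusted p without anti-RGMa replicate 6), and 6 to 10 with single arrays left out. The higher members numbered 0 with a filter on dim genes, in a fit of only the groups compared and at an adjusted p, and 0 to 1 with single arrays left out. For isotype control against naïve cords, lower members numbered 0 with the cartilage and bone covariate, 1 with a fold above 1.5 added, and 2 to 5 with single arrays left out, while higher members were 20 to 22 with single arrays left out, 14 with that covariate, 18 with that fold limit and 18 without isotype control replicates 3, 4 and 5. For anti-RGMa against naïve cords, higher members numbered 8 with the cartilage and bone covariate and 13 to 17 with single arrays left out, and lower members 0 with that covariate and with the filter on dim genes, 5 after quantile normalization, and 0 to 1 with single arrays left out. Of the 13 cartilage and bone genes measured, 4 were higher and 1 lower in isotype control than in naïve cords, with Acp5 highest at 6.84. This covariate can therefore take up part of the group difference itself. The same-numbered arrays did not deviate together (correlations of -0.064 to 0.071), so no sign of pairing by number was seen in these values. With the replicate block the lower members in anti-RGMa against naïve cords numbered 0. In an alternative chosen after seeing the data, leaving out isotype control replicates 3, 4 and 5 gave, between the antibodies, 3 lower substrates, 3 lower fibroblast markers, 0 lower and 1 higher skeletal muscle markers, and 0 lower and 1 higher cartilage and bone markers. Quantile normalization moved the median of all genes to -0.18 in isotype control and -0.16 in anti-RGMa against naïve cords.

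The values that changed sign were small and uncalled, except that of Timp3 against naïve cords. For anti-RGMa minus naïve, Mmp7 was -0.24 with the cartilage and bone covariate, -0.15 after quantile normalization, -0.02 with the muscle covariate and -0.26 to 0.53 with single arrays left out. For anti-RGMa minus isotype control, Mmp8 was 0.04 with the cartilage and bone covariate and -0.39 to 0.10 with single arrays left out, and Mmp9 was 0.02 with array weights, 0.04 and 0.06 with the cartilage and muscle covariates and -0.21 to 0.07 with single arrays left out. For isotype control minus naïve, Mmp9 ran from -0.16 to 0.11 with single arrays left out. The mean of probe sets gave 0.27 (isotype control minus naïve) and 0.16 (anti-RGMa minus naïve) for Mmp9, -0.02 (anti-RGMa minus isotype control), -0.24 (isotype control minus naïve) and -0.25 (anti-RGMa minus naïve) for Timp2, -0.04 (isotype control minus naïve) and -0.20 (anti-RGMa minus naïve) for Timp3, and -0.10 (anti-RGMa minus naïve) for Timp4. Timp2 between the antibodies was -0.00 after quantile normalization. Timp4 in isotype control minus naïve was 0.07 with the muscle covariate and 0.10 without isotype control replicates 3, 4 and 5. The causes were not tested. Signals of the 10 dim members limit what can be read from them.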
